A study of Arabidopsis thaliana with 2 samples.

Results

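A set of 10 nuclear genes of Arabidopsis thaliana, which make chlorophyll or build the photosynthetic apparatus, was examined for binding of LHY, a MYB-type regulator of transcription at the core of the circadian clock. They were chosen by function and because a peak was listed for them, so the presence of a peak is not a result here, and they are 10 of the 1602 genes in the authors' table of LHY peaks. PORB (AT4G27440), CRD1 (AT3G56940), HEMA1 (AT1G58290) and GUN5 (AT5G13630) act in chlorophyll synthesis. PSBP-1 (AT1G06680) and PSBX (AT2G06520) encode parts of photosystem II, and PSAL (AT4G12800), PSAH-1 (AT3G16140) and PSAD-1 (AT4G02770) encode parts of photosystem I. PGRL1B (AT4G11960) acts in cyclic electron flow around photosystem I. One chromatin immunoprecipitation (ChIP-seq) library, made with LHY antiserum, was compared by the authors with 1 library of input DNA. Both came from wild-type Col seedlings grown for 2 weeks and taken 2 h after dawn, and the DNA of 4 immunoprecipitations was pooled, per the labels. No replicate library exists for either, so every value below is a single measurement without replicate error. The table was made against input only, without plants that lack LHY, and read depth is unknown.

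Chlorophyll is made in the plastid by enzymes encoded in the nucleus. The pathway starts when glutamyl-tRNA is reduced, shares its early steps with heme synthesis, and turns towards chlorophyll when magnesium chelatase inserts magnesium into protoporphyrin IX. In flowering plants the reduction of protochlorophyllide needs light, and free intermediates are phototoxic, so pigment supply is tied to light and to the assembly of the photosystems. LHY is abundant in the morning and is known above all as a repressor of clock genes that are expressed in the evening.

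PORB, which encodes a light-dependent protochlorophyllide oxidoreductase, had by far the strongest peak of the 10 genes. Its −log10 q, the authors' measure of how firmly the peak caller separated a peak from input, was 145, and its peak lay at −127 bp from the transcription start site (TSS), on the upstream side. PORB ranked 10 among the 1602 genes. The next gene in the group, PSBP-1, had 18.2, which is 127 units of −log10 q below PORB, and the lowest, GUN5, was 140.2 units below it. The values of the 9 weaker genes spanned 13.3 units and added up to 96.4, less than the value of PORB alone. A −log10 q grows with read depth as well as with enrichment, so the size of these differences does not measure the size of differences in occupancy.

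**Figure D1:**
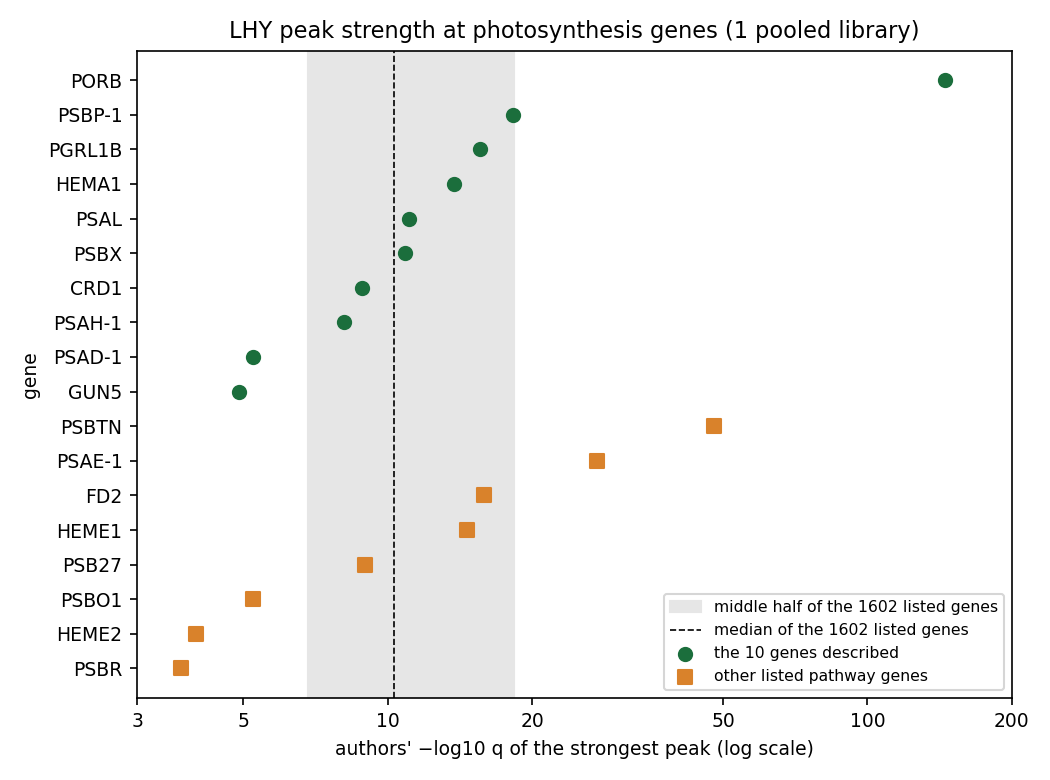
Strength of the strongest LHY peak at each gene, as the authors' −log10 q on a log axis. Circles are the 10 genes, squares 8 further genes of the same pathways with a listed peak, the grey band runs between the quartiles (6.80 and 18.3) of all 1602 genes and the dashed line is their median (10.3). PORB stands at 145, whereas the 9 other circles lie between 4.89 and 18.2.

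Away from PORB, the genes of chlorophyll synthesis had modest peaks. HEMA1, which encodes the glutamyl-tRNA reductase of the first committed step, had a −log10 q of 13.7 and a peak 59 bp past the TSS. CRD1, a subunit of the cyclase that closes the isocyclic ring of protochlorophyllide, had 8.83 at −11 bp. GUN5, the H subunit of magnesium chelatase and a component of signalling from plastid to nucleus, had 4.89 at −279 bp. Their ranks were 562, 955 and 1464, so HEMA1 lay above the median of all listed genes and CRD1 and GUN5 below it.

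Among the photosystem genes, PSBP-1 was highest. It encodes an extrinsic protein of the oxygen-evolving complex, and its peak of 18.2 at −99 bp ranked 404, just under the upper quartile of all genes, 18.3. For PSBX, a small membrane subunit of photosystem II, the value was 10.8 and the position 23 bp past the TSS. In photosystem I, PSAL had 11.1 at 105 bp past the TSS and PSAH-1 had 8.08 at −1055 bp. The products of PSAL and PSAH-1 lie next to each other in the complex, on the side where light-harvesting complex II docks. PSAD-1, whose stromal product helps to dock ferredoxin, had 5.23 at −2775 bp. PGRL1B, which works with PGR5 to return electrons from ferredoxin to the plastoquinone pool, had 15.6 at 90 bp past the TSS.

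The 10 genes had a median −log10 q of 10.9, against 10.3 for the 1592 other listed genes. Only PORB exceeded the 75th percentile, as 25.0% of all listed genes do by definition. A further 5 genes lay between the median and that percentile, 2 (CRD1 and PSAH-1) between the lower quartile and the median, and 2 (PSAD-1 and GUN5) under the lower quartile. Each of the 10 had a single peak, as did 90.8% of the other listed genes. With no replicate, the order of close values such as PSAL (11.1) and PSBX (10.8) is not established. Many weak peaks in the table carry exactly equal values. The value of PSAD-1 recurred at 38 other genes, that of PSAL and of PSBX at 3 each, that of PGRL1B at 2 and that of CRD1 at 1, while those of PORB, PSBP-1, HEMA1, PSAH-1 and GUN5 were unique. Among all listed genes 56.1% shared their highest value with another gene, so 5 of 10 is close to the background.

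Most peaks of the group lay in promoters, as did most of those in the table. Of the 10 genes, 8 had their peak in the promoter window, against 68.3% of all listed genes. This window ran from 1000 bp before the TSS to 200 bp after it. The same 8 lay within 300 bp of the TSS on either side, against 44.7% of all listed genes. PSAH-1 and PSAD-1 were the exceptions. The 300 bp limit was not a planned window, and it just takes in GUN5 at −279 bp. The authors paired peaks with the nearest gene that faces away from them, which itself favours positions upstream and close to a TSS. Some values recur at adjacent loci, such as 137 at SMZ (−1664 bp) and TON1A (−3323 bp). A peak may thus be listed for both neighbours.

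HEMA1, PSBX, PSAL and PGRL1B had their peak downstream of the TSS, by 23 to 105 bp, which is 4 of 10, against 11.6% of all listed genes. All 4 had peaks of middling strength, 10.8 to 15.6. In the table as a whole the downstream share hardly moved with strength, with 9.48% in the strongest of 4 groups divided at the quartiles, 13.0% and 12.3% in the groups between and 11.7% in the weakest. Chromatin had been sheared to 100 to 1000 bp, and it is not stated whether a position marks the summit or the middle of a peak. Small offsets around the TSS, such as −11 bp at CRD1 and 23 bp at PSBX, are therefore finer than the fragments.

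**Figure D2:**
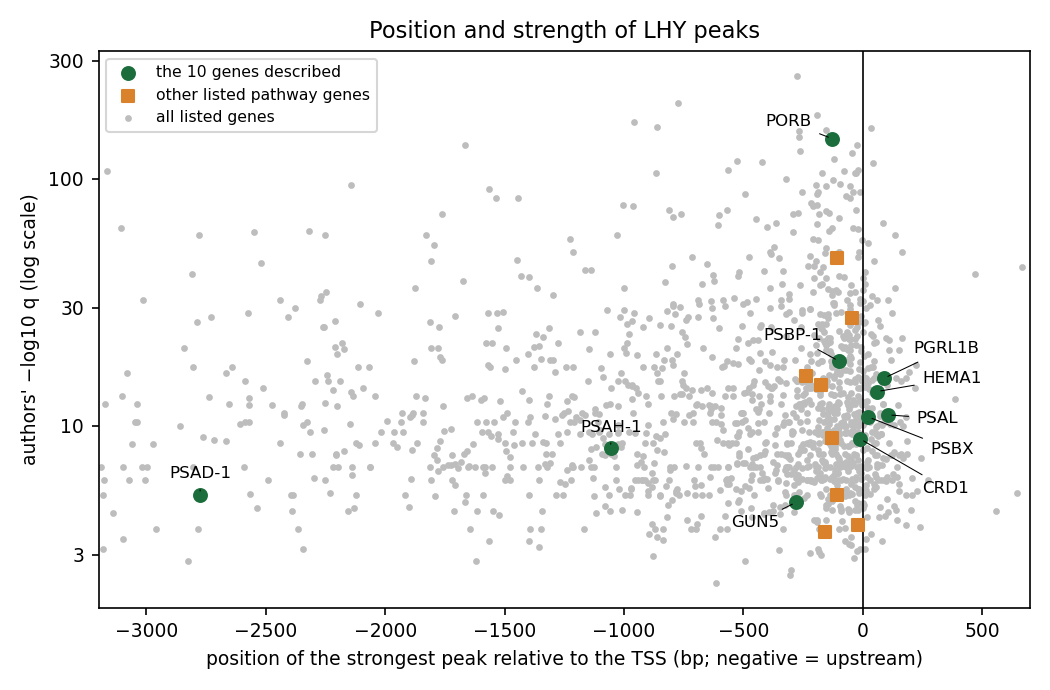
Position of each gene's strongest peak relative to the TSS (bp, negative upstream) against its −log10 q on a log axis. Circles are the 10 genes, squares the 8 further pathway genes and small dots all listed genes, of which 123 lie outside the plotted positions. Most circles sit close to the vertical line at the TSS, PSAH-1 and PSAD-1 lie far upstream, and PORB stands above the rest.

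The rank of each gene at its own position restates its strength and adds no separate evidence. Of 214 listed genes whose strongest peak lay within 50 bp of −127 bp, PORB ranked 2, behind LHCB1.3 (AT1G29930), a light-harvesting gene with nearly identical sister copies, which had 158 at −154 bp. PSBP-1 ranked 63 of 212 genes around its position and HEMA1 40 of 113. GUN5, by contrast, ranked 98 of 102. In the whole table PORB stood between AT3G46630 (148), a gene of unknown function, and SMZ (137), an AP2-type repressor of flowering. TON1A, a gene for a cytoskeletal protein at the adjacent locus, was listed with the same value as SMZ. A single peak may thus stand behind both entries. BBX8, a B-box zinc finger gene, was next above AT3G46630 with 156.

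None of the 10 genes shared its peak value with a listed neighbour. Within 5 places on either side of each of the 10 genes in the annotation, 1 listed gene was found. Among all nuclear protein-coding genes, 5.38% have a listed peak. RPA1A, a single-stranded DNA-binding protein gene immediately next to PSBX, had 7.36 at 168 bp past its own TSS, a different value from that of PSBX.

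Where the group is rhythmic, it peaked from late subjective night to midday. A phase of expression in constant light, which the authors took from the Diurnal database and did not measure in this series, was listed for 7 of the 10 genes, against 38.1% of all listed genes. CRD1 had a phase of 22 h after subjective dawn, HEMA1 23 h, GUN5 1 h, PSAD-1 3 h, PSAL 4 h, and PORB and PSBP-1 6 h. PSBX, PSAH-1 and PGRL1B had none. A listed phase means a rhythm above the 0.8 cut-off of the database, and a missing one can also mean a gene that is not in it.

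All 7 phases thus lay between 22 h and 6 h, through dawn, where 32.6% of all listed genes with a phase lie. That interval was chosen after the phases were seen. The mean phase on the circle of hours was 2.5 h for the 7 genes, against 7.81 h for the 603 other genes with a phase. The resultant length, which is higher when phases lie closer together, was 0.721 for the 7 and 0.354 for the 603. The phases of the 603 were thus widely spread, and their mean describes them poorly. The phases did not follow the order of steps in chlorophyll synthesis. HEMA1, GUN5 and CRD1 had phases around subjective dawn and PORB, which acts after them, 6 h, but HEME1 and HEME2, further genes of the pathway that act before GUN5, had 7 h and 6 h. Nor did peak strength follow phase: PORB and PSBP-1 had 145 and 18.2 at 6 h, while PSBO1 of photosystem II and HEME2, with the same phase, had 5.24 and 3.97.

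**Figure D3:**
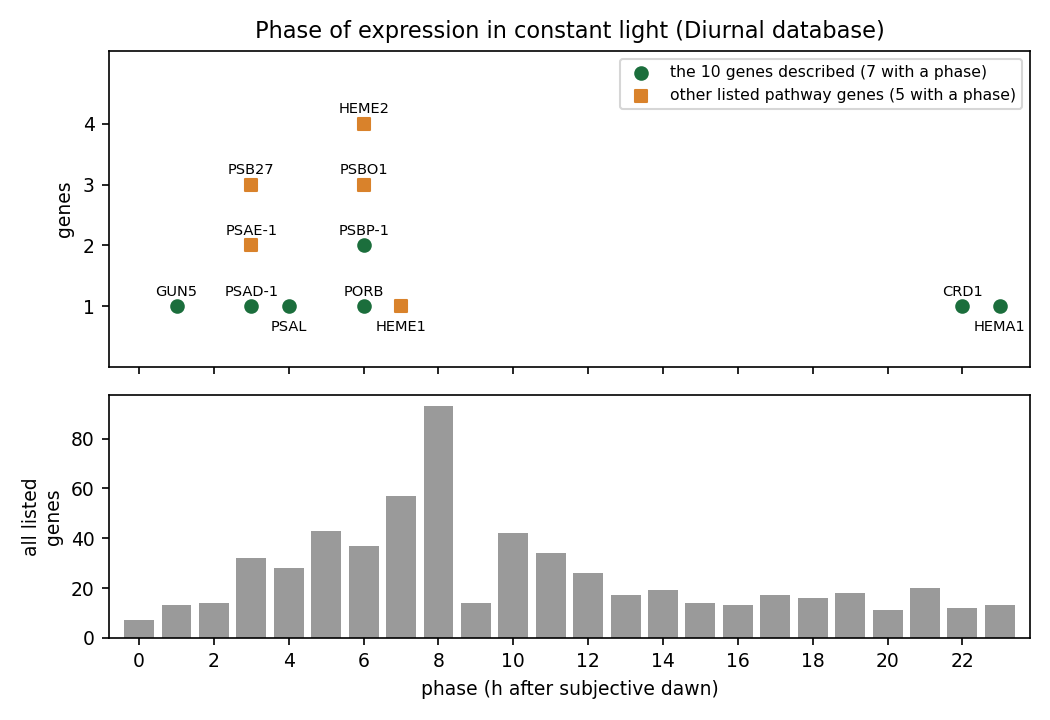
Phase of expression in constant light, in h after subjective dawn, of the 7 genes with a listed phase (circles, stacked where phases coincide) and of 5 further pathway genes (squares), above a histogram of the 610 listed genes with a phase. The symbols fall between 22 h and 7 h, whereas the most frequent phase of all listed genes is 8 h, with 93 genes.

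Ranks within a phase also restate the strength of each peak, and they place each gene among those expressed at the same hour. Among the 37 listed genes with a phase of 6 h, whose median −log10 q was 14.2, PORB ranked 2 behind AT3G46630 and PSBP-1 ranked 16. PSAL ranked 9 of 28 genes at 4 h, CRD1 5 of 12 at 22 h and HEMA1 7 of 13 at 23 h, all in the upper part or the middle of their hour. PSAD-1 ranked 29 of 32 at 3 h, an hour that includes LHCB1.3, and GUN5 ranked 13 of 13 at 1 h.

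The genes most like PORB in timing and position were sought among listed genes with a phase within 1 h of that of PORB and a strongest peak within 50 bp of its position. Besides PSBP-1, 24 genes met both. The 5 nearest to PORB in −log10 q were PRR7, a pseudo-response regulator of the clock (98.9 at −125 bp, 6 h), CSY2, a peroxisomal citrate synthase gene (61.4 at −142 bp, 6 h), ACP4, a plastid acyl carrier protein gene (35.4 at −112 bp, 5 h), SHOC1, a meiotic crossover gene (28.0 at −160 bp, 5 h), and OZF2, a zinc finger gene (24.6 at −170 bp, 6 h).

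Of the 10 genes, 6 have close copies elsewhere in the genome, and none of these 8 copies had a listed peak. Only 5.38% of all nuclear protein-coding genes have a listed peak, so the absence of all 8 is close to the background. The 10 genes were chosen for having a peak, which fixes their side of the contrast. PORA and PORC, the other protochlorophyllide oxidoreductase genes, were not in the table. HEMA2 and HEMA3, PSBP-2, PSAH-2, PSAD-2 and PGRL1A were not in it either. The table holds only peaks that passed the peak caller, with a lowest value of 2.31, so binding below that level at a copy would not appear. The handling of reads that match more than 1 copy is not stated.

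The 10 genes were then set beside the rest of their pathways, with 69 nuclear genes in 4 lists. Of these, 16 had a peak in the promoter window (23.2%), against 3.83% of all nuclear protein-coding genes, and 18 had a peak anywhere (26.1%, against 5.38%). No test was made, because the 10 genes had been picked from the table and are themselves among these 18. The picked genes raise both percentages. A further 8 of the 18 had not been picked, but the lists too were chosen with earlier results of these data known. All 8 had their strongest peak upstream of the TSS and within 300 bp of it, so that the downstream positions of HEMA1, PSBX, PSAL and PGRL1B make 4 of 18 (22.2%) over all listed pathway genes.

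Chlorophyll synthesis had a promoter peak at 6 of 32 genes (18.8%), against 3.83% of all nuclear protein-coding genes. Of the 6, the 4 already described were picked for having a peak, which raises this share. The others were HEME1 (14.6 at −176 bp, phase 7 h) and HEME2 (3.97 at −19 bp, phase 6 h). Both encode uroporphyrinogen decarboxylase, a step before the branch to heme. The other 26 genes had no listed peak. They included GSA1 and GSA2, which act just after HEMA1, the magnesium chelatase subunit genes CHLI1, CHLI2 and CHLD, its regulator GUN4, the methyltransferase gene CHLM, which acts between GUN5 and CRD1, and the late genes CHLG and CAO, for chlorophyll synthase and the oxygenase that makes chlorophyll b.

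The list of photosystem II subunits, which also includes the assembly factor PSB27, had a promoter peak at 6 of 14 genes (42.9%). Of these, PSBP-1 and PSBX were picked for having a peak. PSBTN, a small nuclear-encoded subunit, had 47.9 at −107 bp, more than any of the 10 genes except PORB, and ranked 110. PSB27, an assembly factor, had 8.94 at −129 bp with a phase of 3 h, PSBO1, the manganese-stabilising protein of water oxidation, had 5.24 at −106 bp with a phase of 6 h, and PSBR had 3.70 at −158 bp. PSBO1 and PSBP-1 belong to the same oxygen-evolving complex and had the same phase, and their peaks lay at −106 and −99 bp. Such a match is common, since 37 listed genes had that phase. Within 50 bp of these 2 positions lay the strongest peaks of 213 and 212 listed genes. PSBO2, PSBQ1, PSBQ2, PSBS, PSBW, PSBY and PSB28 had none, like PSBP-2.

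Photosystem I subunits had a promoter peak at 2 of 12 genes (16.7%), PSAL and PSAE-1, and a peak anywhere at 4 of 12 (33.3%). All of these but PSAE-1 were picked for having a peak. PSAE-1, a stromal subunit that neighbours the product of PSAD-1, had 27.3 at −46 bp and a weaker peak of 2.99 at −1702 bp, and ranked 244. Its phase was 3 h, that of PSAD-1. PSAE-2, PSAF, PSAG, PSAK, PSAN and PSAO had no listed peak. In electron transport 2 of 11 genes had a promoter peak (18.2%), PGRL1B, which had been picked, and FD2, the main leaf ferredoxin gene (15.9 at −239 bp). PGR5, the partner of PGRL1B, had none, and neither did the genes of plastocyanin (PETE1 and PETE2) and of ferredoxin-NADP reductase (FNR1 and FNR2).

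**Figure D4:**
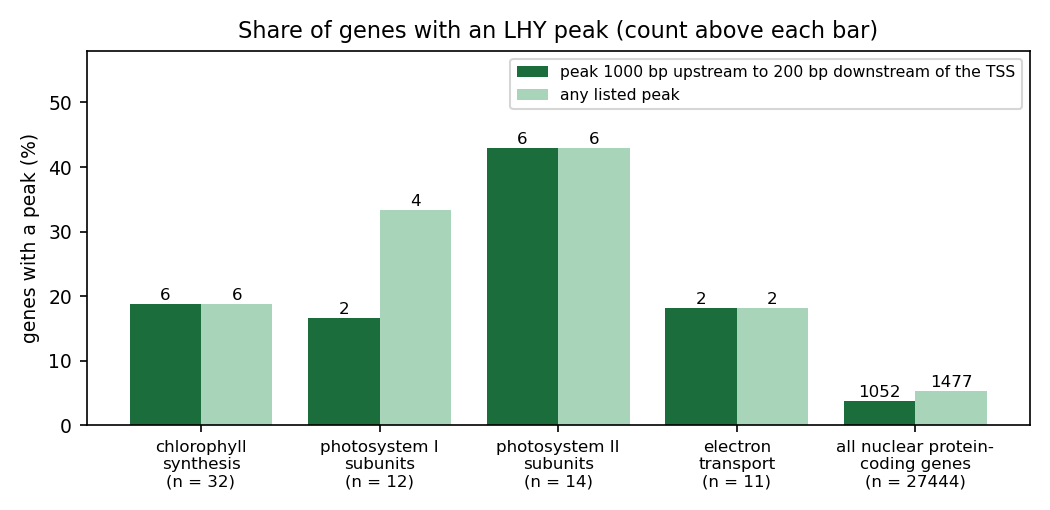
Share of genes with an LHY peak, in percent, in each pathway list and among all nuclear protein-coding genes, with the number of genes above each bar. Dark bars count peaks in the promoter window and light bars any listed peak. The photosystem II list, which also includes the assembly factor PSB27, had 42.9% and the other 3 lists 16.7% to 18.8% by dark bars. All genes had 3.83%, and each list includes genes picked from the table.

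Over the 18 listed pathway genes, 3 exceeded the 75th percentile, PORB, PSBTN and PSAE-1, which is under the 25.0% of all listed genes. Their median of 10.9 was near that of all listed genes, 10.3. A phase was listed for 12 of the 18, and all 12 lay from 22 h through dawn to 7 h, where 42.0% of listed genes with a phase lie. HEME1, at 7 h, was the latest of them.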

How the data were processed

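Per the submitters' processing notes, Bowtie (version not given in the sources used here) and MACS2 2.0.10.09132012 were used with TAIR9. The deposited table gives, per the file headers, up to 4 peaks for each gene with a −log10 q value, called −log10 of the p-value in another header line, and a position in bp from the TSS. These values are the authors' own and were used to describe and rank peaks. Other deposited columns are the phase in h and the number of peaks per gene, which equalled the peaks listed at every gene. Genes were taken by locus, and ranked by their strongest peak.

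Loci were matched to RefSeq TAIR10.1 for symbols, biotypes and neighbours. Its coordinates were used only to order genes along each chromosome. Of 1602 loci, 1596 matched, as did all 69 list loci. The 10 genes and the lists were chosen with earlier results of these data known. The genes named are the 10, their copies, list genes with a peak, and those nearest PORB in rank or pattern. Other genes without a peak, RPA1A, LHCB1.3 and the other light-harvesting genes were added after the values were seen. So were the genes named from the search of gene descriptions. No test was made across genes: there is 1 library per group. Planned motif searches and protein comparisons were not run. Ranking and counting were tested on simulated data. Python 3.11.15, NumPy 2.4.6, pandas 2.3.3 and Matplotlib 3.10.9 were used.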

Additional observations from a re-analysis of the deposited data

How the results depend on the processing

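Of 24 alternative counts of genes with a promoter peak, 19 stayed within 1.5 times the count given above. The count of the 10 genes was 8 with 500 bp upstream, 10 with 3000 bp upstream or with any listed peak, and 6 with peaks above the median −log10 q only. With peaks above the median only, the counts were 3 for chlorophyll synthesis, 3 for photosystem II and 10 for all 4 lists, since fewer peaks enter by construction. Photosystem I had 4 genes with 3000 bp upstream and 4 with any listed peak, since PSAH-1 and PSAD-1 then enter. PORB ranked 13 when the peaks of each gene were summed and 10 among protein-coding genes. Of 20 alternative ranks of the 10 genes, 7 stayed within 1 percentile point. The motif alternatives were not run. Depth is unknown, and a gene under the caller's threshold is not listed. No paired analysis was possible because only 1 library of each kind was made.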

Other observations

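Further photosynthesis genes appeared in the table outside the 4 lists. A search of the authors' gene descriptions for photosystem, chlorophyll, photosynthesis or thylakoid, made after the values were seen, found 49 listed genes. Of these, 16 were in the lists, 8 encode light-harvesting proteins and 25 remained, with a median −log10 q of 11.7, near that of all listed genes. The strongest of the 25 were COR314-TM2, a cold-regulated gene whose product the authors' description places in the thylakoid membrane (78.2 at −193 bp), and ELIP1, an early light-induced protein gene of photoprotection (32.1 at −637 bp). NPQ1, which encodes violaxanthin de-epoxidase of the xanthophyll cycle, had 15.2 at 159 bp downstream of the TSS, and PIFI had 15.7 at −21 bp. CCB3, an assembly gene of the cytochrome b6f complex, had 18.1 at −9 bp. AOC1 and AOC2, genes of jasmonate synthesis, were also caught by the search.

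Of these 25 genes, 14 had a listed phase, of which 6 lay from 22 h through dawn to 7 h and 8 from 8 to 21 h, among them NPQ1 at 10 h and PIFI at 8 h. In the first interval lie 42.0% of all listed genes with a phase, so 6 of 14 is near the background. In the 4 lists all 12 listed phases fell in it. The difference was not tested, since both the interval and the search were chosen after the values were seen. Light-harvesting genes, left out of the 25, had phases in the same interval, so it was not particular to the 4 lists. LHCB1.3, AT3G47470 and AT2G34430 had 3 h, and AT2G05100 and AT3G08940 2 h. AT3G27690 had 0 h, AT5G01530 4 h and AT3G54890 5 h. Of the 25 genes, 7 had their strongest peak downstream of the TSS, against 11.6% of all listed genes at or downstream of it.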
